A study of Homo sapiens with 6 samples.

Results

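MAT2A, MAT2B and METTL16 encode the enzyme that makes S-adenosylmethionine outside the liver, its regulatory subunit, and an RNA methyltransferase that acts on the MAT2A transcript. The members were chosen by gene name and hold 3 of the 58523 genes with a matched transcript. Every transcript annotated to them was kept, which gave 24 of the 244939 transcripts listed: 6 of MAT2A, 8 of MAT2B and 10 of METTL16. Levels were read in A375, an established human melanoma cell line from ATCC. One group of 3 dishes was exposed for 24 hours to hMGL, a human protein engineered to degrade methionine. The other group of 3 dishes was untreated, and both groups grew in the same serum-supplemented medium. RNA sequencing of 1 library per dish gave 50760266 to 53682075 estimated counts in the treated libraries, against 53441686 to 59954677 in the untreated libraries. The dishes come from 1 line and 1 time point, so the p-values measure the spread between these cultures only. In RNA from whole cultures, a change in the share of cells that carry a transcript and a change in the amount per cell cannot be told apart.

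S-adenosylmethionine is the methyl donor of most cellular methylation reactions and is made from methionine and ATP. MAT2A is the catalytic subunit found in most tissues and tumours, MAT2B binds it and tunes its activity, and the related MAT1A serves adult liver. MAT2A RNA is known to be regulated through hairpins in its 3′ untranslated region (UTR), where METTL16 places N6-methyladenosine. When S-adenosylmethionine is scarce, METTL16 is known to stay bound to these hairpins and the last MAT2A intron is removed more efficiently, whereas with ample supply part of the RNA keeps that intron and remains in the nucleus.

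The METTL16 recognition letters TACAGAGAA were searched on both strands of each gene's longest annotated 3′ UTR among its protein-coding transcripts. The MAT2A copies are shown because they mark where the methyltransferase is known to act. They were listed by the shorter string TACAGA, so a site with other letters after it is included. The capitals mark the 9 core letters, each within 27 bases of GRCh38 on the plus strand of chromosome 2, in the last exon of MAT2A.
MAT2A site 1, chr2:85543803-85543829: ggcgtaggcTACAGAGAAgccttcaag
MAT2A site 2, chr2:85544590-85544616: gtgatgtcaTACAGAGAAgtcacaggg
MAT2A site 3, chr2:85544775-85544801: tggtgtagcTACAGAGAAaccagcttc
MAT2A site 4, chr2:85544890-85544916: tggcgtaagTACAGAGAAgccatcacc
MAT2A site 5, chr2:85545005-85545031: aaggtgtccTACAGAAAAaccttgggt
MAT2A site 6, chr2:85545113-85545139: ctggtgtggTACAGAGAAgccagcttg

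Sites 1, 2, 3, 4 and 6 carried the exact letters, and site 5 carried TACAGAAAA. They began 43, 830, 1015, 1130, 1245 and 1353 bases into the 1511-base UTR, so site 1 lay just past the stop codon and the others in the distal part. At least 1 exact sense copy was present in 320 of 19128 genes with an annotated 3′ UTR, or 1.67%. The antisense letters were present in 2.26%. MAT2A held 5 exact copies and the next highest count was 2. MAT2B and METTL16 held 0 copies in their own UTRs. These are matches of letters in the reference genome and no binding was measured.

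MAT2A-201, the full coding transcript, has 9 exons. Its last intron spans chr2:85543035-85543669, or 635 bases, and ends ahead of the exon that carries all 6 sites. A pair of other MAT2A transcripts, MAT2A-202 and MAT2A-205, read on into this intron and stop there. The junction is shown because it separates these transcripts from MAT2A-201. Capitals mark the last 12 bases of exon 8 (chr2:85543023-85543034), and lower case the next 18 transcribed bases.
MAT2A-201, continuing at chr2:85543670-85543687: GGTCATTGTCAGggatctggatctgaagaa
MAT2A-202 and MAT2A-205, continuing at chr2:85543035-85543052: GGTCATTGTCAGgtaaagatggtaaagcct

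**Figure D1:**
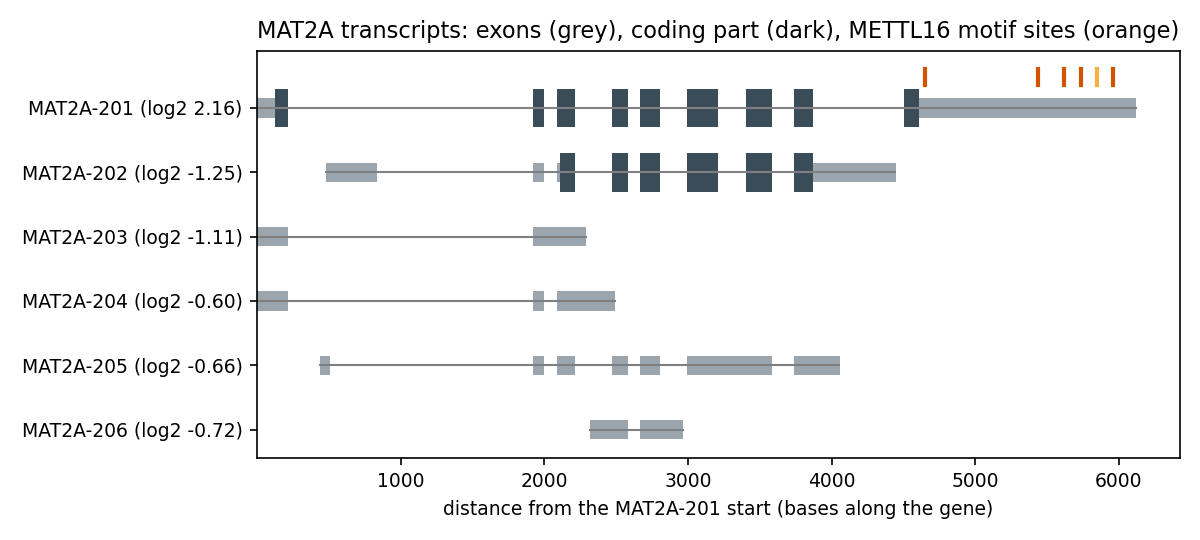
The annotated MAT2A transcripts are drawn to scale by distance in bases from the MAT2A-201 start, with exons in grey, coding parts dark and the exact motif sites in orange (the variant site 5 lighter). Each name carries its log2 change in treated over untreated libraries, and MAT2A-201, the one transcript that reaches the sites, is also the one with a positive value (2.16).

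All 3 genes passed the test for a difference between treated and untreated cells, MAT2A and METTL16 upward and MAT2B downward. The test was edgeR's quasi-likelihood F test with Benjamini-Hochberg adjustment over 22580 genes at a threshold of 0.05. It called 69.4% of those genes, 34.9% higher and 34.5% lower, and the groups did not overlap for 73.3% of them, so a call alone does not set these genes apart. The sizes of the changes are therefore given beside those of all genes, whose median log2 change was -0.015, with 5th and 95th percentiles of -1.62 and 1.88.

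MAT2A (ENSG00000168906, chr2:85539165-85545280, plus strand) stood at 316, 295 and 287 TPM, a level scaled to transcript length and depth, in treated cells, against 95.8, 96.9 and 83.4 TPM in untreated cells. Every treated library was above every untreated library, and the gap was larger than either spread. The means were 299 ± 14.8 TPM in treated and 92.0 ± 7.46 TPM in untreated cells (SD, n = 3 each). In CPM, counts scaled to library depth and not to length, the means were 924 ± 20.7 in treated and 257 ± 4.27 in untreated cells. This is a 3.59-fold rise, or a log2 change of 1.84 ± 0.029 (SE), with an edgeR adjusted p of 1.38e-18. Ordered by log2 change, it was 1172nd from the top of the 22580 genes.

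MAT2B (ENSG00000038274, chr5:163503114-163519336, plus strand), the regulatory subunit, moved the other way. Its levels were 21.1, 19.0 and 18.9 TPM in treated cells, against 27.9, 27.6 and 25.7 TPM in untreated cells. No library of one group entered the range of the other. The means were 35.1 ± 0.804 CPM in treated and 50.1 ± 0.935 CPM in untreated cells (SD, n = 3 each). MAT2B thus fell 1.43-fold, a log2 change of -0.51 ± 0.037 (SE) with an edgeR adjusted p of 7.00e-10. Ordered by log2 change, MAT2B was 6202nd from the bottom of the 22580 genes, well inside the 5th percentile.

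METTL16 (ENSG00000127804, chr17:2405562-2511891, minus strand), the methyltransferase, had 19.9, 19.1 and 18.7 TPM in treated cells, against 9.28, 8.80 and 7.73 TPM in untreated cells. The groups were again separate, with every treated library higher. The CPM means were 112 ± 3.82 in treated and 53.3 ± 0.705 in untreated cells (SD, n = 3 each). The rise was 2.11-fold, with a log2 change of 1.07 ± 0.035 (SE) and an edgeR adjusted p of 1.16e-14. It ranked 3093rd from the top. For each gene taken alone, an exact two-sided permutation test of 3 against 3 libraries gave p = 0.1, the smallest value that this design allows.

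**Figure D2:**
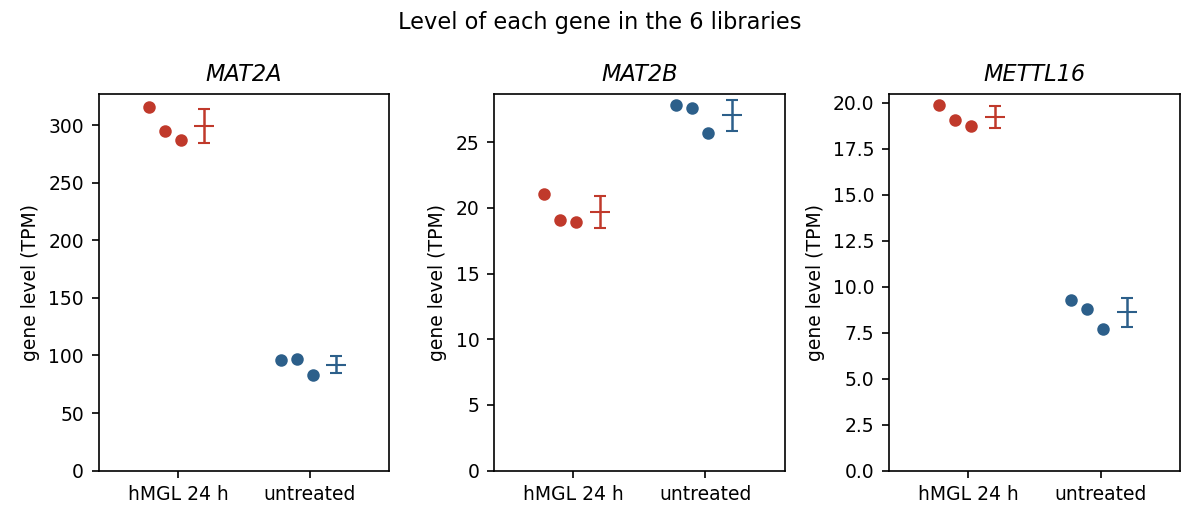
Level of each gene in TPM, one point per library, with hMGL-treated cells in red and untreated cells in blue; the bar beside each group is the mean ± SD (n = 3). The groups do not overlap in any panel, with MAT2A and METTL16 higher and MAT2B lower in treated cells.

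The opposite moves changed the balance of MAT2A to MAT2B RNA, summed over all transcripts of each gene. These sums include transcripts that do not encode the full enzyme. MAT2A-201 averaged 281 of 299 TPM in treated cells and 59.85 of 92.0 TPM in untreated cells. The MAT2A to MAT2B ratio of TPM was 15.0, 15.5 and 15.2 in treated cells, against 3.44, 3.51 and 3.24 in untreated cells. Its mean was 15.2 ± 0.247 in treated and 3.40 ± 0.138 in untreated cells (SD, n = 3 each; exact permutation p = 0.1). MAT2A rose more than its methyltransferase, at 15.6 ± 0.284 times the METTL16 level in treated cells and 10.7 ± 0.353 times in untreated cells. Per length, MAT2A was the highest in treated cells, where MAT2B and METTL16 did not differ beyond their spread. In untreated cells the order was MAT2A, MAT2B, METTL16, each apart from the next beyond its spread. The MAT2B to METTL16 ratio was 1.02 ± 0.0316 in treated and 3.16 ± 0.164 in untreated cells (SD, n = 3 each).

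At transcript level, 20 of the 24 members passed the filter on low counts. Of these, 5 rose, 3 fell and 12 were not called in edgeR's test over 95285 transcripts, which called 30.3% of all transcripts tested, 16.4% higher and 13.9% lower. The remaining 4 transcripts, MAT2B-206, MAT2B-207, METTL16-206 and METTL16-210, failed the filter. In TPM the groups did not overlap for 14 of the 24 transcripts, 4 of MAT2A, 3 of MAT2B and 7 of METTL16. All 14 were among the 20 that passed the filter. Over all transcripts tested the share without overlap was 50.5%, but in CPM, so it is not a like-for-like background. Reads shared between transcripts of a gene were divided by the authors' quantifier, and the error of that division is not part of these tests.

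For MAT2A, 1 transcript rose, 2 fell and 3 were not called, so the rise of the gene was carried by a single product. MAT2A-201, which encodes the full enzyme and carries the printed sites, had 295, 277 and 273 TPM in treated cells, against 62.9, 61.8 and 54.9 TPM in untreated cells. The groups lay far apart. It rose 4.47-fold, a log2 change of 2.16 ± 0.028 (SE) with an edgeR adjusted p of 1.90e-06. It took 97.2 ± 0.314% of the gene's estimated counts in treated and 79.5 ± 0.729% in untreated cells (SD, n = 3 each).

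MAT2A-202, annotated as coding although it ends in the last intron and lacks exon 9, went down while the gene went up. It had 6.40, 6.49 and 4.95 TPM in treated cells, against 13.4, 15.0 and 12.3 TPM in untreated cells. The groups did not overlap, and the fall was 2.38-fold (log2 change -1.25 ± 0.10 SE, edgeR adjusted p = 4.26e-04). MAT2A-205, annotated as retained intron, had 9.15, 6.49 and 6.37 TPM in treated cells, against 12.1, 11.4 and 9.66 TPM in untreated cells. These groups were separated by a narrow margin, and the log2 change was -0.66 ± 0.12 (SE) with an edgeR adjusted p of 0.00922. MAT2A-203 and MAT2A-204, which keep introns 2 and 3, and the processed transcript MAT2A-206 had log2 changes of -1.11, -0.60 and -0.72 and were not called (adjusted p = 0.113, 0.149 and 0.128 in edgeR).

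**Figure D3:**
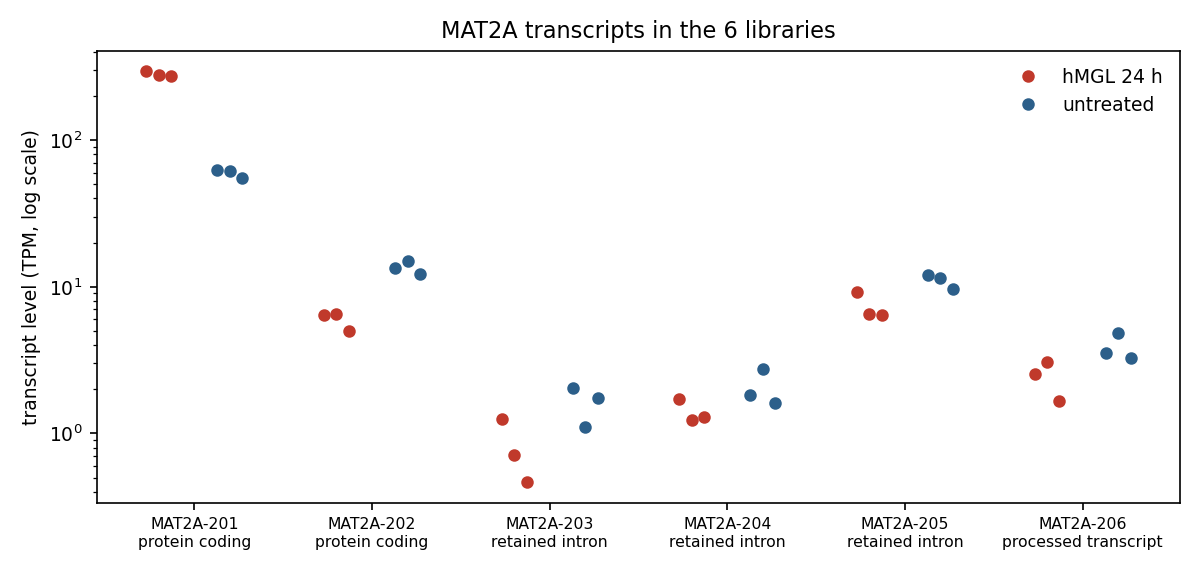
Level of each MAT2A transcript in TPM on a log axis, one point per library, with hMGL-treated cells in red and untreated cells in blue. MAT2A-201 is higher in all treated libraries, and MAT2A-202 and MAT2A-205 are lower in all of them.

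Set against the rest of the gene, each MAT2A transcript other than MAT2A-201 lost ground. In the edgeR test of transcript usage, which compares a transcript's log2 change with that of its gene and called 2.96% of 73934 transcripts, MAT2A-202 to MAT2A-206 were called, all 5 of them lower. Their usage changes ran from -3.12 for MAT2A-202 (adjusted p = 2.17e-15) to -2.47 for MAT2A-204 (adjusted p = 0.0366). MAT2A-201 had a usage change of 0.29 and was not called in that test (adjusted p = 0.894). Because MAT2A-201 made up most of the gene's counts, it was compared largely with itself. The missing call therefore does not show an unchanged share. No transcript of MAT2B or METTL16 was called for usage.

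Grouped by annotated class, the retained-intron transcripts of MAT2A had a log2 change of -0.61 and its coding transcripts one of 2.03. The difference was -2.64 ± 0.107 (SE), with an edgeR adjusted p of 4.96e-09 over 6048 genes with both classes. Of those genes, 34.8% were called, 19.3% lower and 15.4% higher. The median difference was -0.065, and MAT2A was the 37th lowest. For MAT2B the difference was -0.11 and was not called (adjusted p = 0.717). METTL16 did not enter this test, because its 1 retained-intron transcript, METTL16-210, had at most 7.18 estimated counts in a library. Without a filter on low counts its difference was 0.058 ± 0.48 (SE) and was not called (edgeR adjusted p = 0.946).

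**Figure D4:**
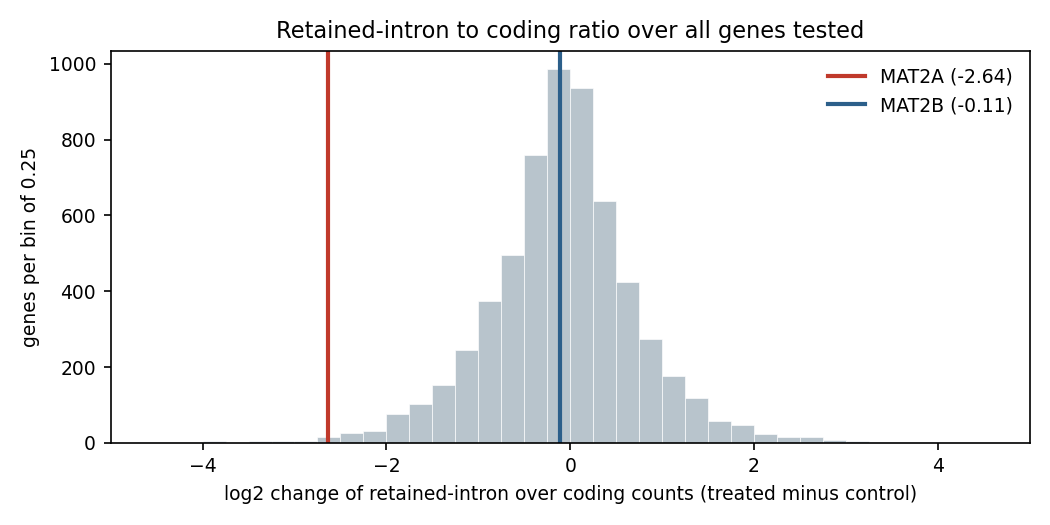
Distribution over all genes tested of the log2 change, treated over untreated, in the ratio of retained-intron to coding counts, with genes per bin on the vertical axis. MAT2A (red line, -2.64) lies in the far lower tail and MAT2B (blue line, -0.11) near the middle.

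The transcripts that end in the last intron, MAT2A-202 and MAT2A-205, were then added together, a grouping chosen after the transcript values were seen. These made up 2.78, 2.62 and 2.26% of MAT2A counts in treated cells, against 18.6, 19.8 and 18.9% in untreated cells. The 95% Wilson intervals, which cover counting error only, lay between 2.12 and 2.94% in treated libraries and between 18.0 and 20.5% in untreated libraries. The mean was 2.55 ± 0.270% in treated and 19.1 ± 0.618% in untreated cells (SD, n = 3 each), a difference of -16.6 percentage points (exact permutation p = 0.1, the smallest possible). As a share of TPM it was 4.42 ± 0.492% in treated and 26.7 ± 0.456% in untreated cells. By annotated retained-intron class alone the share was 1.18 ± 0.206% in treated and 6.88 ± 0.276% in untreated cells. MAT2A-202 holds 574 and MAT2A-205 holds 184 of the 635 bases of that intron. Both also start in other first exons inside intron 1, and MAT2A-205 keeps all 191 bases of intron 6. The share is a sum of transcript estimates, so these values cannot separate the last intron from the start site or from intron 6.

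MAT2B was measured through coding transcripts for the most part. MAT2B-202, its main product, had 14.5, 13.4 and 13.1 TPM in treated cells, against 20.4, 20.0 and 18.3 TPM in untreated cells. All treated libraries were below all untreated ones, and it was the one MAT2B transcript called, with a log2 change of -0.59 ± 0.039 (SE) and an edgeR adjusted p of 1.97e-04. MAT2B-201 starts at chr5:163503114, upstream of the MAT2B-202 start at chr5:163505548. It had 4.45, 3.21 and 4.05 TPM in treated cells, against 4.66, 4.41 and 2.88 TPM in untreated cells. Here the groups overlapped, and no change was called (log2 change -0.09, edgeR adjusted p = 0.761).

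In a comparison added after the transcript values were seen, MAT2B-201 took, of the counts on these 2 coding transcripts, 25.7, 21.4 and 26.0% in treated cells, against 20.5, 19.9 and 15.1% in untreated cells. The groups were separated by less than 1 SD of either (24.4 ± 2.57% in treated and 18.5 ± 2.97% in untreated cells, n = 3 each, exact permutation p = 0.1), and neither transcript was called for usage. The sequence ahead of the starts differs in base content (RefSeq promoter sequences, GRCh38.p14). The 150 bases up to the GENCODE start of MAT2B-202 (chr5:163505398-163505547) are 61.3% G and C with 15 CpG pairs. The 150 bases up to the RefSeq start of MAT2B-201 (chr5:163502914-163503063), which lies upstream of its GENCODE start, are 36% G and C with 0 CpG pairs. The medians over 35116 RefSeq promoters, each read up to the RefSeq start, were 60% and 7 pairs. The retained-intron share of MAT2B was 4.34 ± 0.685% in treated and 4.68 ± 1.40% in untreated cells, with overlapping groups. The other MAT2B transcripts stayed under 3 TPM in every library, were not called or failed the filter, and MAT2B-207 was listed at 0 throughout. The retained-intron transcripts differed, with log2 changes of -1.77 for MAT2B-205 and -0.25 for MAT2B-208 (edgeR adjusted p = 0.160 and 0.478). MAT2B-205 and the coding MAT2B-204 (-0.60, 0.0787) did not overlap. MAT2B-205 was called with limma on log2(TPM + 1) (0.0499). MAT2B-204 was called in DESeq2 (0.0427) and with a minimum count of 50 (0.0479).

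METTL16 rose through its full coding transcript. METTL16-201 had 13.0, 12.1 and 12.1 TPM in treated cells, against 5.92, 6.06 and 5.08 TPM in untreated cells. The groups were well apart, and the log2 change of 1.06 ± 0.041 (SE, edgeR adjusted p = 2.82e-05) was close to that of the gene. Transcripts annotated for nonsense-mediated decay, the surveillance pathway that destroys RNA with early stop codons, rose as well. METTL16-207 had 2.08, 2.91 and 2.30 TPM in treated cells, against 0.727, 1.21 and 1.08 TPM in untreated cells. METTL16-203 averaged 1.01 ± 0.155 TPM in treated and 0.335 ± 0.155 TPM in untreated cells (SD, n = 3 each). Neither overlapped, with rises of 2.31-fold for METTL16-207 and 2.83-fold for METTL16-203 (edgeR adjusted p = 0.0228 and 0.0298).

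METTL16-208, also of the decay class, was not called (edgeR adjusted p = 0.0903), although it was without control library 2 (0.0038), in DESeq2 (0.0046) and on TPM (limma, 0.0015 and 0.0055). It averaged 0.893 ± 0.123 TPM in treated and 0.0975 ± 0.0864 TPM in untreated cells (SD, n = 3 each), and control library 2 listed it at 0. The processed transcript METTL16-202 was called (log2 change 1.29, adjusted p = 0.0361), and METTL16-204, METTL16-205 and METTL16-209 were not (log2 changes 0.64, 2.56 and -0.17, edgeR). METTL16-205 was called in DESeq2 (0.0450) and on TPM (limma, 0.0109 and 0.0140), and not in 5 other settings with all libraries. METTL16-204 was called in DESeq2 (0.0141) and in edgeR with a minimum count of 50 (0.0486), and not in 6 other such settings. The called transcripts of METTL16 other than METTL16-201 had at most 307 estimated counts in a library, and their calls changed when 1 library was left out. In those fits, calls over all transcripts also fell, from 28880 to between 22310 and 23121. The log2 change ran from 1.11 to 1.39 for METTL16-202, 1.32 to 1.85 for METTL16-203 and 0.99 to 1.37 for METTL16-207. The 4 METTL16 calls became 2 without control library 1, control library 3 or treated library 4, and 1 without treated library 5 or 6. Without control library 2 they numbered 4 again but were other transcripts in part, with METTL16-205 and METTL16-208 in place of METTL16-202 and METTL16-207.

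The decay class as a whole, a grouping added after the transcript values were seen, took 6.56, 7.86 and 7.40% of METTL16 counts in treated cells, against 4.05, 5.29 and 6.03% in untreated cells. The groups were separate by a small margin (7.27 ± 0.661% in treated and 5.12 ± 1.00% in untreated cells, n = 3 each, exact permutation p = 0.1). The difference was 2.15 percentage points in counts and 5.67 as a share of TPM. Most of the difference in counts lay in METTL16-208, which was not called. Its mean share was 2.23% in treated and 0.558% in untreated cells. The called METTL16-207 had 4.44% in treated and 4.12% in untreated cells, and METTL16-203 had 0.603% and 0.441%. Decay over coding changed by 0.55 ± 0.185 (log2, SE; edgeR adjusted p = 0.0431), on a test that called 30.7% of 4244 genes, 22.9% higher and 7.8% lower, and had a median of 0.24. The call was lost without control library 1 or 2 or any treated library (adjusted p from 0.0561 to 0.155), so it rests on all of these libraries. The call was also lost without a filter on low counts (edgeR adjusted p = 0.0514).

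**Figure D5:**
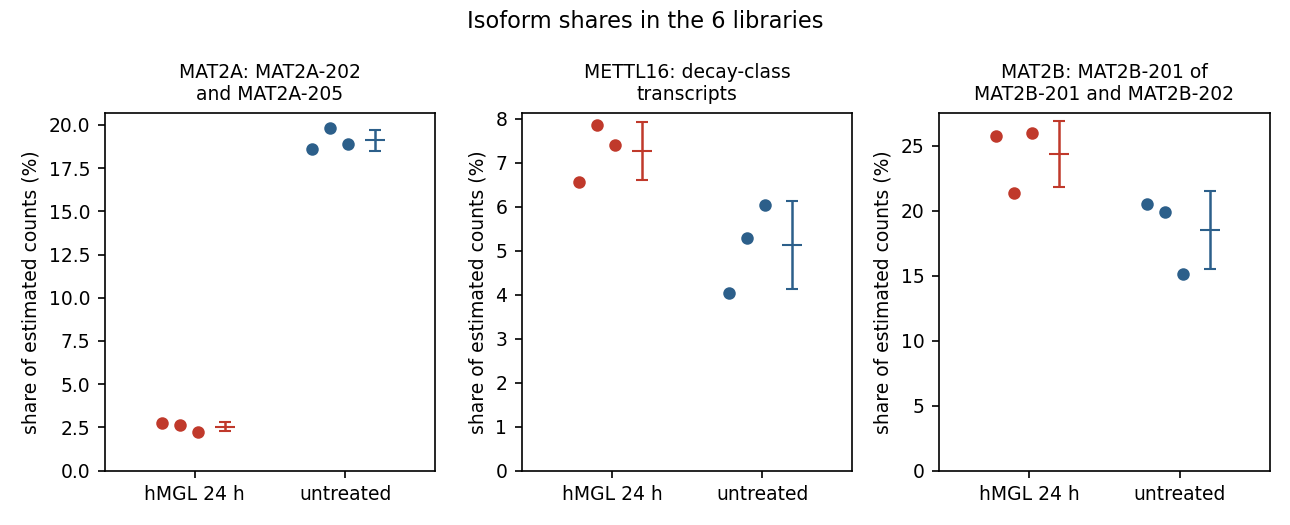
Share of estimated counts in percent, one point per library with mean ± SD (n = 3): MAT2A-202 plus MAT2A-205 within MAT2A (left), decay-class transcripts within METTL16 (middle) and MAT2B-201 within the pair MAT2B-201 and MAT2B-202 (right). The MAT2A share is near 2.55% in treated and 19.1% in untreated cells, while the other shares differ by a few points.

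Partners of these genes were read from 4 lists. Among 4 factors known to act on MAT2A RNA, 2 rose and 2 fell, with a median log2 change of 0.11. These counts and those of the next lists stand beside the 34.9% of all genes called higher, the 34.5% called lower and the median of -0.015. YTHDC1, a nuclear reader of N6-methyladenosine, averaged 225 ± 1.54 CPM in treated and 96.7 ± 2.50 CPM in untreated cells (log2 change 1.22). The subunits of cleavage factor Im, needed for MAT2A splicing and 3′ end choice, did not move together. NUDT21 (log2 change -0.69) and CPSF6 (-0.49) fell, and CPSF7 (0.71) rose.

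U6 small nuclear RNA is the other well-known METTL16 substrate. Of 11 genes for its maturation and its ring of LSM proteins, 2 rose, 6 fell and 3 were not called, with a median of -0.25. TUT1, which adds uridines to U6, averaged 103 ± 2.72 CPM in treated and 34.7 ± 0.579 CPM in untreated cells (log2 change 1.57). LSM6 had the lowest value of the list, at 8.12 ± 0.593 CPM in treated and 28.6 ± 1.63 CPM in untreated cells (log2 change -1.82). LSM2 (-1.42) and LSM4 (-1.08) fell too, while LSM5, LSM7 and LSM8 were not called. The falls of USB1, LARP7 and LSM3 were not called on TPM (limma adjusted p from 0.0968 to 0.310), which left 3 of the 6.

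In the S-adenosylmethionine cycle, 11 of 12 genes were tested, of which 3 rose, 4 fell and 4 were not called, with a median of -0.013. MTRR, which keeps methionine synthase active, rose (log2 change 1.05). Methionine synthase itself, MTR, fell to 71.5 ± 4.65 CPM in treated cells, against 140 ± 8.70 CPM in untreated cells (-0.97), with a smaller change of -0.31 on log2(TPM + 1). AHCY, which clears the product of methylation, fell as well (-0.86), as did AHCYL1 (-0.65) and the low-level GNMT (-0.76). The GNMT call was lost without control library 3 (edgeR adjusted p = 0.0566) and in DESeq2 (0.0603). MAT1A, the liver form of the catalytic subunit, was at 0.276 ± 0.0677 CPM in treated and 0.138 ± 0.0365 CPM in untreated cells. Its edgeR adjusted p of 0.0498 was lost in 5 of the 6 fits without 1 library, and sharing of reads with MAT2A was not tested. SAMTOR, a sensor of S-adenosylmethionine, was not called (-0.013), nor were SLC25A26, AHCYL2 and BHMT2.

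Of 14 other genes for N6-methyladenosine and related marks on RNA, 10 rose, 2 fell and 2 were not called, with a median of 0.50. RBM15, an adaptor of the main methyltransferase complex, averaged 149 ± 10.7 CPM in treated and 36.1 ± 8.68 CPM in untreated cells (log2 change 2.04, edgeR adjusted p = 9.00e-04). METTL14 (1.12), CBLL1 (1.19) and WTAP (0.96), further parts of that complex, rose. Its catalytic subunit METTL3 did not follow them, with a log2 change of -0.35 in counts and no call on TPM (limma adjusted p = 0.208). The eraser ALKBH5 rose (0.51), and FTO changed by 0.10 (edgeR adjusted p = 0.0236). The FTO call was lost without control library 2 (0.0545) or 3 (0.0754) and on TPM (limma adjusted p = 0.0635 and 0.0612). PCIF1, which methylates cap-adjacent adenosine, fell in counts (-0.38), and its sign turned on TPM (0.08, not called).

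For each gene, the 5 protein-coding genes with the closest profile were found by Euclidean distance between centred log2 CPM over the 6 libraries, among 9525 candidates. Nearest to MAT2A were GRPEL2, ERI2, VPS37B, ZNF213 and ZKSCAN5, at distances of 0.036 to 0.069. Nearest to MAT2B were ABCF2, TTC31, ATP6V1C1, MAPRE1 and NPRL3, at 0.027 to 0.042. On TPM the sign of ABCF2 turned and ATP6V1C1 was not called. Nearest to METTL16 were DHX34, TPRA1, REXO4, PARP6 and SMG5, at 0.029 to 0.052. With 2 groups, such a distance mostly reflects the size of the group difference.

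The cell label was read from markers of the melanocyte lineage. Of 8 markers, MITF, SOX10, S100B and MIA were above 1 CPM in every library. TYR and DCT were below it in every library, MLANA in every library but control library 3 (1.02 CPM), and PMEL in the untreated ones. The summed level of the 8, most of it SOX10, was 450 to 461 CPM in treated cells and 521 to 583 CPM in untreated cells. The members did not move together. S100B averaged 5.83 ± 1.12 CPM in treated and 38.6 ± 0.830 CPM in untreated cells (SD, n = 3 each). MIA averaged 55.4 ± 2.53 CPM in treated and 44.9 ± 2.25 CPM in untreated cells, and PMEL 2.05 ± 0.0987 CPM in treated and 0.556 ± 0.0505 CPM in untreated cells. Summed fibroblast markers were at 2.53 to 2.86 CPM in treated and 5.50 to 5.66 CPM in untreated cells, and endothelial markers at 2.51 to 2.80 CPM in treated and 0.871 to 1.53 CPM in untreated cells. Epithelial markers, of which only KRT14 passed 1 CPM in all libraries, summed to 10.2 to 11.0 CPM in treated and 15.9 to 17.9 CPM in untreated cells. Leukocyte markers summed to at most 0.696 CPM. The noncoding RNA RN7SL1 took 18.5 to 22.1% of TPM in treated and 16.1 to 19.4% in untreated libraries, which lowers the TPM of every other transcript. The part of any of these in the changes above was not tested.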

How the data were processed

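Estimated counts and TPM per transcript were deposited by the authors, made with kallisto 0.45.0 per the submitters' processing notes, with 1 table per library. The transcript index, read trimming and strand setting are not given in the sources used here. Of 244939 transcripts, 203436 matched GENCODE 29 (GRCh38) by identifier. The 41503 others held 4.86 to 5.13% of the counts and belong to no gene here. Of the 24 member transcripts, 21 had the annotated length, so the index may have been another release. The others were the main coding transcript of each gene. MAT2A-201 had 2817 bases as quantified and 2819 as annotated, MAT2B-202 2064 and 2103, and METTL16-201 5740 and 5711. The effect of these differences was not tested.

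Estimated counts were summed per gene or per gene and class, or kept per transcript, and then rounded. They were filtered (minimum count 10), scaled by TMM and tested with edgeR 4.0.16 (R 4.3.3). Class ratios and transcript usage were tested with edgeR's diffSpliceDGE. CPM is per TMM-scaled library. SE is the log2 change divided by the square root of F. Alternatives used limma 3.58.1 on log2(TPM + 1) and log2(TPM + 0.1), and DESeq2 1.42.0. The code was tested on simulated counts. Library totals of 50760266 to 59954677 give 1715 or more counts per member gene. Members, lists and alternatives were chosen with earlier results of these data known. Named genes are the members, all their transcripts, the 5 nearest profiles and any tested gene of the 4 lists. The processing notes name DESeq2 1.30.0, whose output was not used here. The values of 1 listed gene are not reported here.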

Additional observations from a re-analysis of the deposited data

How the results depend on the processing

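No paired analysis was possible because the treated and untreated libraries share no replicate number. Over the settings run for single genes, which leave out the 1.5-fold requirement, the log2 change of MAT2A ran from 1.60 to 1.92, of MAT2B from -0.56 to -0.44 and of METTL16 from 1.06 to 1.16, each on the same side of the threshold. The MAT2A retained-intron to coding difference ran from -2.79 to -2.57. The MAT2A retained-intron share differed by -12.8 points as a share of TPM and by -6.16 points with every non-coding or decay class. For MAT2B it was -3.35 points on TPM, and for METTL16 2.98 points with every non-coding or decay class. Requiring a change of at least 1.5-fold left 7987 of 15677 genes and 14808 of 28880 transcripts. The 1.43-fold fall of MAT2B was smaller than this requirement. MAT2B had 2 called transcripts with the stricter filter, DESeq2 or limma on log2(TPM + 1). METTL16 had 2 without a filter and 7 with DESeq2, and from 1 to 4 with 1 library left out. Signs turned for MAT2B-201 without control library 1 (0.0073) or treated library 5 (0.029), within a range of -0.25 to 0.029 with 1 library left out, and for METTL16-209 without control library 1 (0.70), without treated library 4 (0.010; range -0.78 to 0.70) and with limma (0.044 and 0.59). MAT2B retained-intron over coding ran from -0.31 to 0.15 with 1 library left out, the highest without control library 3 (0.15). ABCF2 (0.061 and 0.064) and PCIF1 (0.082 and 0.096) turned with limma on log2(TPM + 1) and log2(TPM + 0.1). The cause of these moves was not tested. Several minor METTL16 and MAT2B transcripts had under 50 counts, and the part of depth in these moves was not tested.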
